A study of Mus musculus with 10 samples.

Results

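The circadian clock genes were described in liver RNA of 10 mice, 5 given phenobarbital and 5 controls. The set was fixed by name as Clock, Arntl, Per1, Per2, Per3, Cry1, Cry2, Nr1d1, Nr1d2 and Dbp, and its members are the probe sets that the array annotation assigns to these symbols. All 10 genes were measured, by 23 of the 45101 probe sets on the array, and they are 10 of the 18193 genes tested. The animals were male B6C3F1/Crl mice (C57BL/6 male x C3H/He female), 29 to 32 days old when they arrived and given 5 days to settle. The phenobarbital group drank water holding 0.05% (w/v) of the drug, a barbiturate that induces drug-metabolising enzymes in liver, and the control group did not receive it. All were killed on day 28, and each liver was hybridised to its own Affymetrix array, whose deposited value is a log2 level for each probe set. The labels give the day of killing but no hour, and they give neither the light schedule nor the feeding state.

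The circadian clock of hepatocytes is a feedback loop of transcription. CLOCK and ARNTL (also called BMAL1) bind together to E-box sequences and switch on the Per and Cry genes, whose proteins return to the nucleus and inhibit CLOCK and ARNTL. The same pair switches on Nr1d1 and Nr1d2, whose products REV-ERB alpha and beta repress Arntl through ROR elements, and Dbp, whose product binds D-boxes in genes of drug and lipid metabolism. In mouse liver Arntl, Npas2, Clock, Nfil3 and Cry1 are known to be highest in the late night or early day, here called dawn genes. Nr1d1, Nr1d2, Dbp, Tef, Hlf, Ciart and the Per genes are highest between midday and the early night, here called dusk genes. Arntl and Dbp are therefore nearly opposite in phase, so that tissue taken later in the day has less Arntl and more Dbp.

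Promoters of the members were searched for the letters of the elements named above, where a match is a description and not a proven binding site. RefSeq windows of build GRCm38.p6, from 250 bases before to 50 bases after a transcript start, were held for 9 of the 10 genes, in 13 windows. Both strands were searched for the E-box CACGTG, the related CACGTT, the D-box forms TTATGTAA and TTACGTAA, and the ROR element cores TAGGTCA and TGGGTCA. None of the matches in these genes overlapped another. The 5 windows printed hold a match and are given 5′ to 3′ on the strand of the gene, with the matched letters in capitals. They were chosen because Cry1 was lower in treated livers, Arntl and Nr1d1 are opposite in phase, and Per1 and Per3 hold the letters of the E-box and the D-box.
Cry1, chr10:85185005-85185304, minus strand: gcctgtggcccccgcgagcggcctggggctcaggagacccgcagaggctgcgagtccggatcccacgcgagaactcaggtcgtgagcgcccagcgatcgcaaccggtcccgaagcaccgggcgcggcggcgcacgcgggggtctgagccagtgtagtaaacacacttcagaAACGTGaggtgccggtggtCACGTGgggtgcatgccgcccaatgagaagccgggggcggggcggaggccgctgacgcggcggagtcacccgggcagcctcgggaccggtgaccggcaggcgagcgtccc
Arntl, chr7:113207261-113207560, plus strand: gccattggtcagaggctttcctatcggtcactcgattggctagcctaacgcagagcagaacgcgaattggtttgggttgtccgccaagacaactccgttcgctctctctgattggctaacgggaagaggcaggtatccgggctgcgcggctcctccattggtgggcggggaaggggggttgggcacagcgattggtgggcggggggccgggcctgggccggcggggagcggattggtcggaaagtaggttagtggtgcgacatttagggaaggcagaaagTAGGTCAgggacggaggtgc
Nr1d1, chr11:98775328-98775627, minus strand: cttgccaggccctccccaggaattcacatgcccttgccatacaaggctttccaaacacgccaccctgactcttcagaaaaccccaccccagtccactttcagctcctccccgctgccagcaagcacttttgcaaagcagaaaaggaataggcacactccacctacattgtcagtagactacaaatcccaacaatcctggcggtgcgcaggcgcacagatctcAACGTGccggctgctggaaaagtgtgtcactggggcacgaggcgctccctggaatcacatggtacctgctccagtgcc
Per1, chr11:69098699-69098998, plus strand: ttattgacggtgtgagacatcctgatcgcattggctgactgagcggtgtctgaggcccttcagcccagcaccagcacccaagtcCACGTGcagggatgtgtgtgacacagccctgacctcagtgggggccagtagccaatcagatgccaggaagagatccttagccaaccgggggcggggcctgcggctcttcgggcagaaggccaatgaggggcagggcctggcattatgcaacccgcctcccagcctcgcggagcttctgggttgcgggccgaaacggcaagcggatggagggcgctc
Per3, chr4:151044616-151044915, minus strand: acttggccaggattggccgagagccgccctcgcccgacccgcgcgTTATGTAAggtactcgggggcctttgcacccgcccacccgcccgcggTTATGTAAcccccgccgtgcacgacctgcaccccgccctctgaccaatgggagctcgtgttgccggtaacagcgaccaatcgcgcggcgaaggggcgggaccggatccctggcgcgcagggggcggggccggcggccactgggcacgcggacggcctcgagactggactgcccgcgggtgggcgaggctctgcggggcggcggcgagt

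Cry1 had a CACGTG beginning 60 bases before the start and the reverse complement of CACGTT beginning 79 bases before it. Per1 had a CACGTG 166 bases before its start, and Per3 had TTATGTAA 205 and 158 bases before its start. Nr1d1 and Cry2 carried the reverse complement of CACGTT, 28 and 166 bases before their starts, and 1 of the 2 Arntl windows held TAGGTCA after the start. CACGTG stood in 2 of the 13 windows (2 of the 9 genes), against 7.15% of all 32851 promoter windows. CACGTT stood in 3 of 13 windows (3 of 9 genes), against 4.68% of all windows. TTATGTAA was in 1 of 13 windows against 0.938% of all windows, and TAGGTCA in 1 of 13 against 2.61%. No member window had TTACGTAA, held by 0.119% of all windows, or TGGGTCA, held by 3.98%. The 3 windows of Clock and the windows of Dbp and Nr1d2 held none of these letters, which concerns these short stretches alone.

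Of the 10 clock genes, Clock and Cry1 were lower in phenobarbital-treated livers and no member was higher. Clock stood at 0.736 of its control level (log2 fold change -0.44 ± 0.09 SE) and Cry1 at 0.766 (-0.38 ± 0.10 SE), with limma adjusted p of 0.00606 and 0.0201, adjusted over all genes with the method of Benjamini and Hochberg. The other 8 did not pass an adjusted p of 0.05. In the whole comparison 20.3% of genes passed, 9.02% higher and 11.3% lower, so 2 of 10 members is close to the share across all genes and is no result about the clock genes as a set. With control replicates 1 to 5 left out in turn, 15.6%, 13.5%, 13.9%, 25.4% and 18.4% of all genes passed. With phenobarbital replicates 1 to 5 left out in turn, 16.1%, 13.4%, 18%, 14.7% and 16% passed. In each of these 10 fits Clock and Cry1 were the members that passed, except that Cry1 did not without phenobarbital replicate 2. The median log2 fold change was 0.02 over the members and 0.01 over all genes tested.

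**Figure D1:**
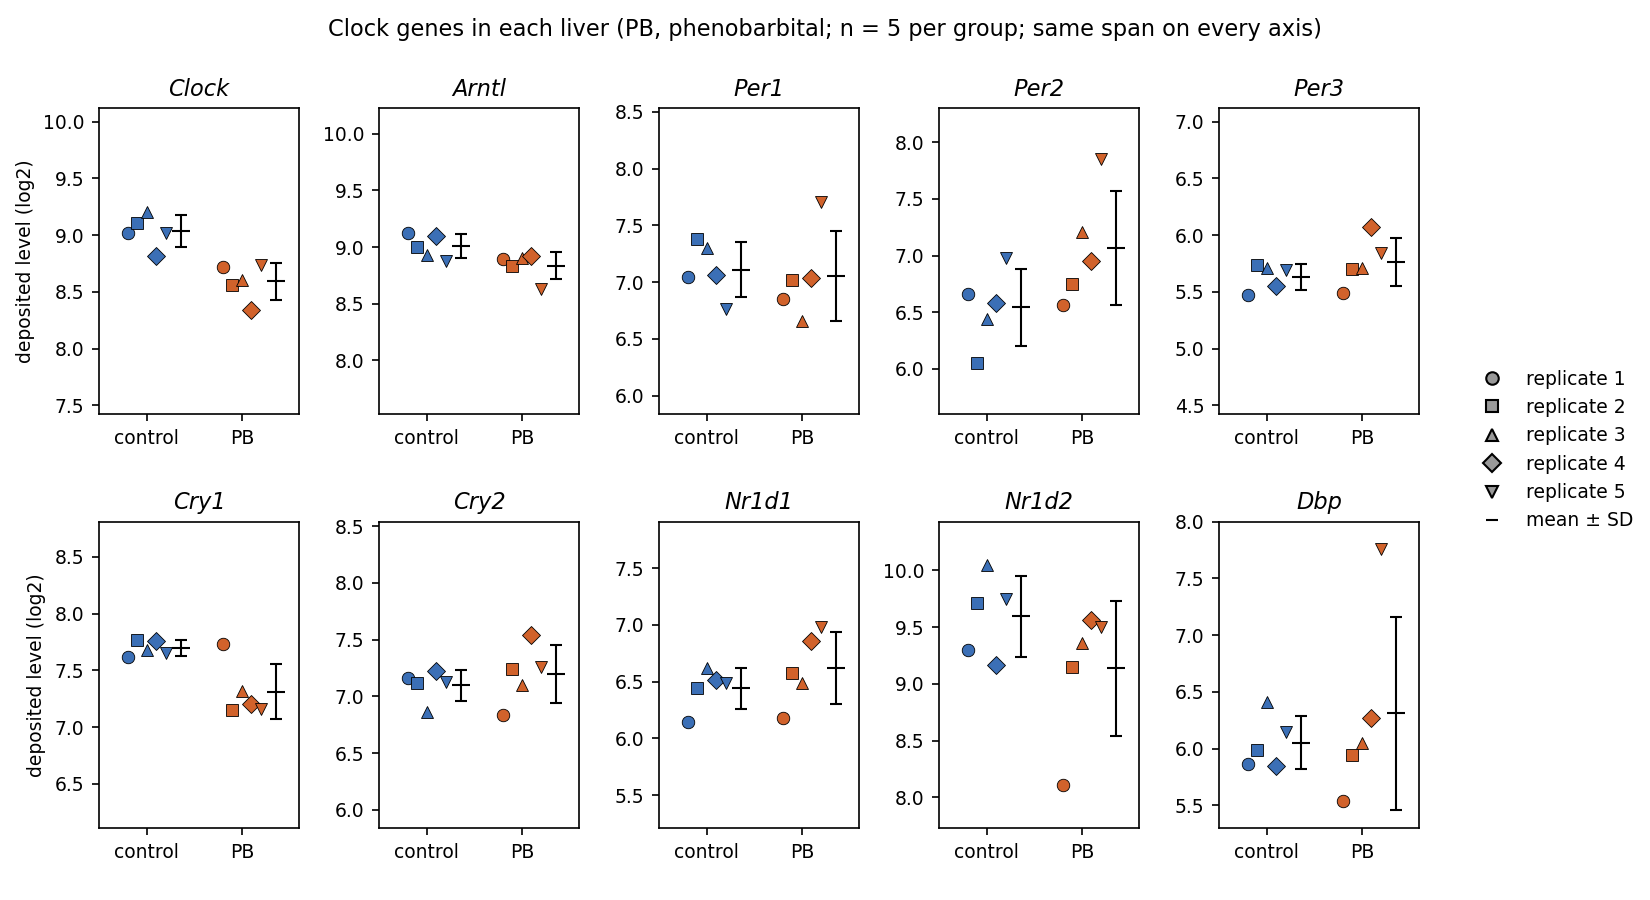
Deposited log2 level of each clock gene (vertical axis, the same span in every panel) in 5 control and 5 phenobarbital (PB) livers, with a symbol for each replicate and the group mean ± SD beside the points. The groups stand apart for Clock, from 8.34 to 8.74 against 8.82 to 9.20, and overlap for the other 9 genes.

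The 10 arrays did not have equal technical profiles, and the measures move with treatment. The mean of 24 probe sets for poly-A spike-ins, bacterial RNAs added before labelling, ran from 7.77 to 8.64 on 4 of the control arrays. On control replicate 4 it was 6.40, and phenobarbital arrays spanned 5.76 to 6.58. The upper quartile of all probe sets was 7.39 to 7.46 in controls and 7.30 to 7.36 in treated livers. With the spike-in split entered as a block, which leaves control replicate 4 as the sole control beside the treated arrays, 0.786% of genes passed and no clock gene did. An unadjusted p under 0.05 was then found for 1 of 10 members, Cry1, against 13.3% of all genes. Hepatocyte markers were close to the highest values on the arrays in all livers, with a mean over 9 genes of 14.31 to 14.36 in controls and 14.22 to 14.30 in treated livers. The 2 ranges did not overlap, 8 of the 9 markers had a log2 difference below 0, and 1, Apob, passed as lower (-0.20, limma adjusted p = 0.039). The mean of 9 kidney markers lay between 4.98 and 5.58 in controls and 5.11 and 5.23 in treated livers, and none passed.

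The activating limb of the loop is the pair CLOCK and ARNTL. Clock, which encodes a DNA-binding partner in that pair, had levels of 9.02, 9.11, 9.20, 8.82 and 9.02 in control replicates 1 to 5 and of 8.72, 8.56, 8.6, 8.34 and 8.74 in phenobarbital replicates 1 to 5. Every treated liver was below every control, a separation found in 7.21% of all genes in that direction and in 5.73% in the other. The means were 9.03 ± 0.14 and 8.59 ± 0.16 (SD, n = 5 each), and the 95% interval of the log2 difference ran from -0.64 to -0.25. The lowest control was replicate 4, and with the spike-in split as a block the log2 difference of Clock was -0.23 ± 0.14 (SE, limma adjusted p = 0.523). Clock has 4 probe sets. Among all probe sets tested singly, 18.7% passed, 7.7% higher and 11% lower, and 3 of the 4 for Clock passed as lower. Their log2 differences were -0.44, -0.38 and -0.49, and that of the remaining one was -0.15.

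Arntl, the partner of Clock and the gene that the REV-ERB proteins repress, had levels of 9.12, 9.0, 8.93, 9.10 and 8.88 in controls and of 8.89, 8.83, 8.90, 8.92 and 8.63 in treated livers. The groups overlapped, and the lowest of the 10 values was that of phenobarbital replicate 5. The log2 difference was -0.17 ± 0.08 (SE, 95% interval -0.33 to -0.01), and it did not pass over all genes (limma adjusted p = 0.122). Without phenobarbital replicate 5 it was -0.12. The second Arntl probe set, which read between 5.17 and 6.11, had a log2 difference of -0.28 that did not pass either.

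The repressing limb is formed by the period and cryptochrome genes. Cry1, a repressor of CLOCK and ARNTL that accumulates later than the Per products, had levels of 7.62, 7.77, 7.68, 7.76 and 7.65 in controls and of 7.73, 7.15, 7.32, 7.2 and 7.16 in treated livers. Phenobarbital replicate 1 lay within the control range, and the other 4 treated livers were below every control. The means were 7.70 ± 0.07 and 7.31 ± 0.24 (SD, n = 5 each). The call was lost after quantile normalisation (log2 difference -0.29, limma adjusted p = 0.0626) and without phenobarbital replicate 2 (-0.34, limma adjusted p = 0.0538). With the spike-in split as a block the log2 difference was -0.45 ± 0.18 (SE, limma adjusted p = 0.306). Cry1 has a single probe set, whose suffix marks it as shared by alternative transcripts.

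Cry2, the second cryptochrome repressor, had levels of 7.16, 7.12, 6.86, 7.22 and 7.13 in controls and of 6.84, 7.24, 7.10, 7.54 and 7.26 in treated livers. The groups overlapped, with the lowest and highest of the 10 values both in treated animals. Between groups the log2 difference was 0.10 ± 0.11 (SE, limma adjusted p = 0.571), and its sign turned with the spike-in split as a block (-0.02).

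Per1, a period repressor that also responds rapidly to glucocorticoids and other signals, had levels of 7.05, 7.38, 7.30, 7.06 and 6.76 in controls and of 6.85, 7.02, 6.66, 7.04 and 7.71 in treated livers. Phenobarbital replicate 5 was the highest of all 10 and phenobarbital replicate 3 the lowest. The log2 difference between the groups was -0.05 ± 0.17 (SE, 95% interval -0.42 to 0.31, limma adjusted p = 0.852), with a sign that turned after quantile normalisation (0.05).

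Per2, a period repressor that also answers to systemic cues, had levels of 6.66, 6.05, 6.44, 6.58 and 6.98 in controls and of 6.56, 6.75, 7.21, 6.95 and 7.85 in treated livers. Again phenobarbital replicate 5 was the highest, and 2 treated livers were above all controls. The log2 difference was 0.52 ± 0.22 (SE, 95% interval 0.05 to 0.99), which did not pass over all genes (limma adjusted p = 0.106) and was 0.33 without phenobarbital replicate 5. The 2 other Per2 probe sets had log2 differences of 0.36 and 0.25 and did not pass, and phenobarbital replicate 5 was the highest on both, at 7.33 and 6.23.

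Per3, the third period gene, was measured by 6 probe sets that read between 4.48 and 6.07, around the array medians of 5.42 to 5.5. On the probe set with the highest mean, levels were 5.47, 5.74, 5.71, 5.55 and 5.69 in controls and 5.49, 5.70, 5.71, 6.07 and 5.84 in treated livers. The groups overlapped, with phenobarbital replicates 4 and 5 above every control. Its log2 difference was 0.13 ± 0.10 (SE, limma adjusted p = 0.371), and over the 6 probe sets it ranged from -0.09 to 0.21 with none passing.

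Nr1d1, which encodes REV-ERB alpha, had levels of 6.14, 6.44, 6.62, 6.51 and 6.49 in controls and of 6.18, 6.58, 6.49, 6.86 and 6.98 in treated livers. The highest values were those of phenobarbital replicates 4 and 5, and the lowest were those of replicate 1 of either group. It differed between groups by 0.18 ± 0.14 (log2, SE, 95% interval -0.12 to 0.47, limma adjusted p = 0.377) and 0.09 without phenobarbital replicate 5.

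Nr1d2, which encodes REV-ERB beta, had levels of 9.30, 9.71, 10.05, 9.17 and 9.75 in controls and of 8.11, 9.15, 9.36, 9.56 and 9.50 in treated livers. Phenobarbital replicate 1 was far below the other 9 animals. The log2 difference was -0.46 ± 0.25 (SE, limma adjusted p = 0.206), and it was -0.20 without phenobarbital replicate 1 and -0.03 with the spike-in split as a block. The second Nr1d2 probe set read between 3.96 and 4.38, at or near the lower quartile of the arrays, and differed by -0.02.

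Dbp, the D-box activator at the output of the clock, had levels of 5.86, 5.99, 6.41, 5.85 and 6.15 in controls and of 5.54, 5.94, 6.05, 6.27 and 7.76 in treated livers. Phenobarbital replicate 5 stood well above all others, and phenobarbital replicate 1 was the lowest of the 10. The log2 difference was 0.26 ± 0.31 (SE, 95% interval -0.42 to 0.94, limma adjusted p = 0.587), and without phenobarbital replicate 5 its sign turned (-0.10). The second Dbp probe set gave the same extremes, 6.94 in phenobarbital replicate 5 and 5.18 in phenobarbital replicate 1.

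**Figure D2:**
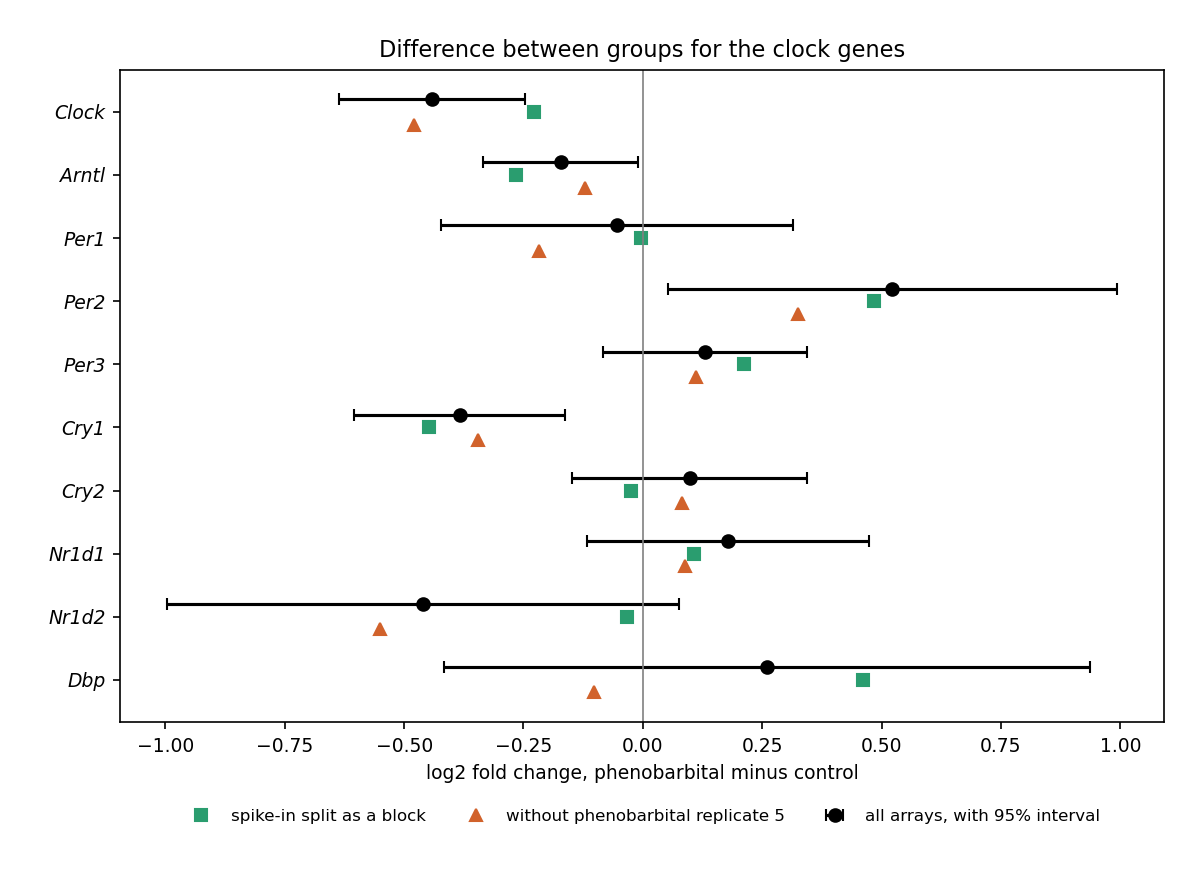
Log2 fold change of each clock gene, phenobarbital minus control (horizontal axis), from all 10 arrays with its 95% interval (circles), with the spike-in split as a block (squares) and without phenobarbital replicate 5 (triangles). Clock and Cry1 lie below 0 in all 3 fits, while Dbp changes side without phenobarbital replicate 5.

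On the probe set with the highest mean for each gene, the members differed between treated animals more than between controls. The SD over 5 livers was larger in the phenobarbital group for 10 of 10 clock genes, whereas this held for 36.5% of all 18193 genes. Further probe sets of the members did not all share this. The treated SD was smaller on the second probe sets of Arntl (0.30 against 0.34) and Nr1d2 (0.03 against 0.15) and on the other Clock probe sets. It was larger on the second of Dbp (0.66 against 0.19) and the others of Per2, and those of Per3 went both ways. The median ratio of the SDs, phenobarbital over control, was 1.71 for the members and 0.815 for all genes. Dbp had the largest SD in treated livers, 0.85 against 0.23 in controls, followed by Nr1d2 with 0.59 against 0.36. Cry1 had 0.24 against 0.07. Without phenobarbital replicate 5 the SD was larger in the treated group for 7 of 10 members and 34.7% of all genes, and without phenobarbital replicate 1 for 9 of 10 and 31.1%. Each omission keeps the other of these animals, which lie at opposite ends for Dbp, and no SD was taken without both. The 10 genes act in a shared loop, so their SDs are not separate observations. These are descriptions, and no test of the spread was made.

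**Figure D3:**
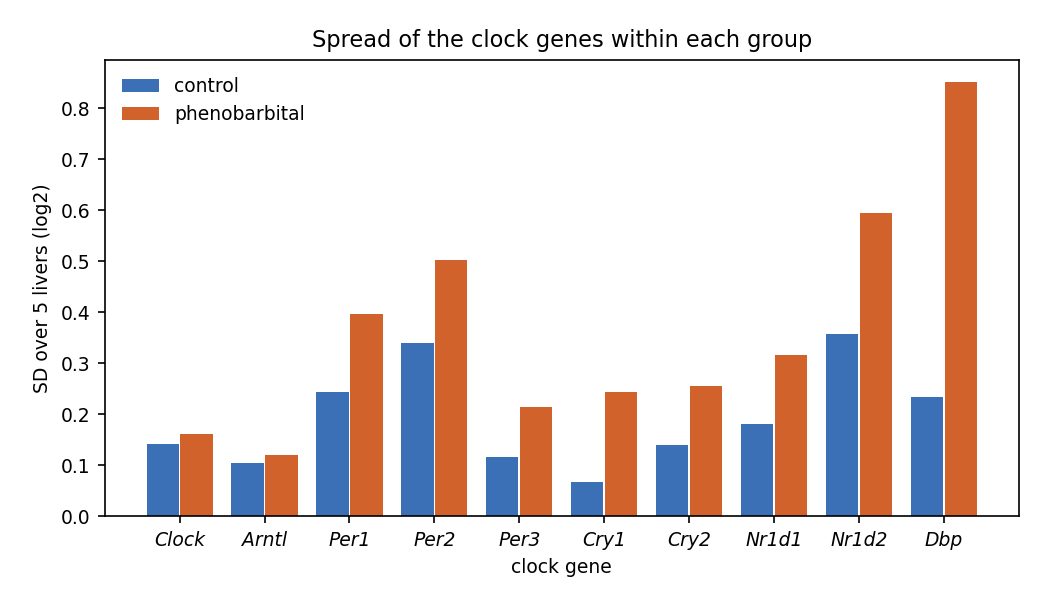
SD of the log2 level over the 5 livers of each group (vertical axis) for each clock gene, control and phenobarbital side by side. On the probe set with the highest mean for each gene, shown here, the phenobarbital bar is the taller for all 10 genes, from 0.12 against 0.10 for Arntl to 0.85 against 0.23 for Dbp.

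Genes of opposite phase were set against each other in every liver, since no hour of killing is given. Arntl minus Dbp, expressed relative to the control mean, was 0.31, 0.06, -0.43, 0.30 and -0.22 in controls and 0.40, -0.06, -0.10, -0.30 and -2.08 in treated livers. Phenobarbital replicate 5 was far to the dusk side of every other animal, and phenobarbital replicate 1 was furthest to the dawn side. The treated mean was -0.43 with all 5 animals and -0.02 without phenobarbital replicate 5. Of the other 4 treated animals, 3 lay inside the range of the controls and phenobarbital replicate 1 just above it. A second pair of opposite phase, Npas2 minus Nr1d1, gave 0.37, 0.06, -0.29, -0.09 and -0.03 in controls and 0.18, -0.07, 0.09, -0.36 and -1.32 in treated livers. In this pair phenobarbital replicates 4 and 5 were both below every control. Its treated mean was -0.30, and -0.04 without phenobarbital replicate 5. Without that animal both treated means were nearer to the control mean than the SD of the controls, which was 0.33 for Arntl minus Dbp and 0.24 for Npas2 minus Nr1d1.

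**Figure D4:**
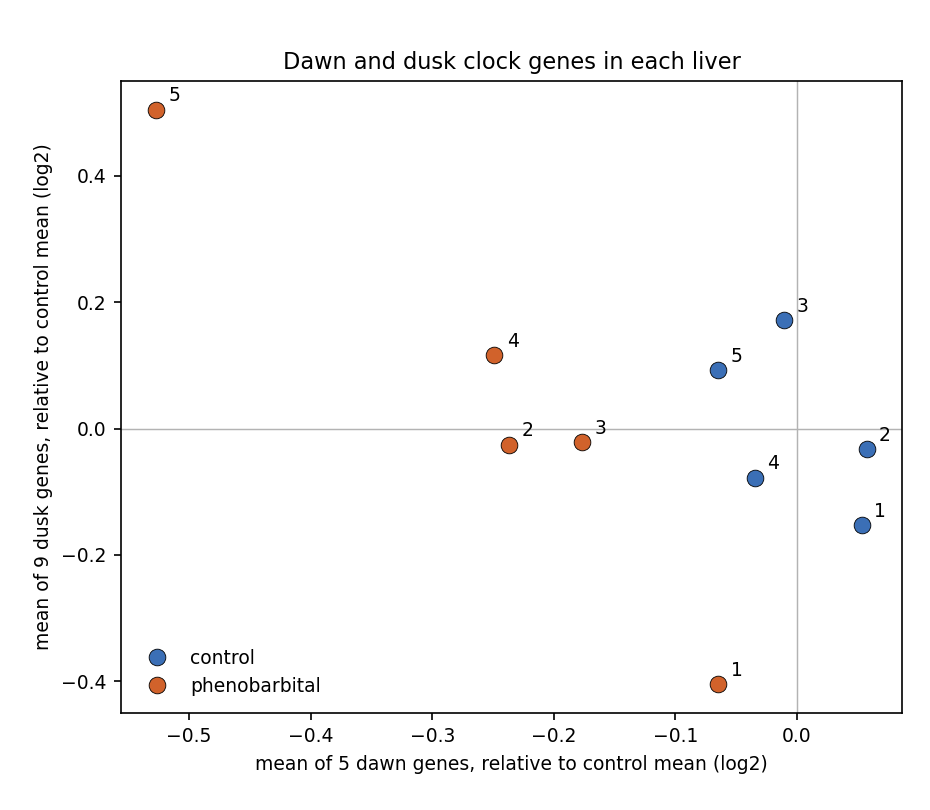
Mean of the 5 dawn genes (horizontal axis) against the mean of the 9 dusk genes (vertical axis) in each liver, both log2 and relative to the control mean, with replicate numbers beside the points. Phenobarbital replicate 5 lies at -0.53 and 0.50, and phenobarbital replicate 1 at -0.06 and -0.40.

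Over the 5 dawn genes Arntl, Npas2, Clock, Nfil3 and Cry1, the mean level relative to controls was between -0.06 and 0.06 in control livers. In phenobarbital replicates 1 to 5 it was -0.06, -0.24, -0.18, -0.25 and -0.53. Over the 9 dusk genes it was between -0.15 and 0.17 in controls and -0.40, -0.03, -0.02, 0.12 and 0.50 in phenobarbital replicates 1 to 5. The dawn mean minus the dusk mean was between -0.18 and 0.21 in controls. In phenobarbital replicates 1 to 5 it was 0.34, -0.21, -0.16, -0.36 and -1.03, inside the control range in replicate 3 alone. The dawn mean of the treated group without phenobarbital replicate 5 was -0.18 and the dusk mean -0.08, both below the control mean. The 2 called members, Clock and Cry1, are both in the dawn list, and the other 3 dawn genes did not pass. In phenobarbital replicate 5 all 5 dawn genes were below and 8 of 9 dusk genes above the control mean, the exception being Nr1d2. In phenobarbital replicate 1, 7 of 9 dusk genes were below it. Counts like these were also found in controls. In control replicates 1 to 5, 2, 1, 4, 3 and 4 of 5 dawn genes were below the control mean. Dusk genes above it numbered 2, 4, 7, 4 and 8 of 9 in the same order, and control replicate 1 had 7 below it. A difference in the hour of killing and an effect of treatment on the clock cannot be told apart here.

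**Figure D5:**
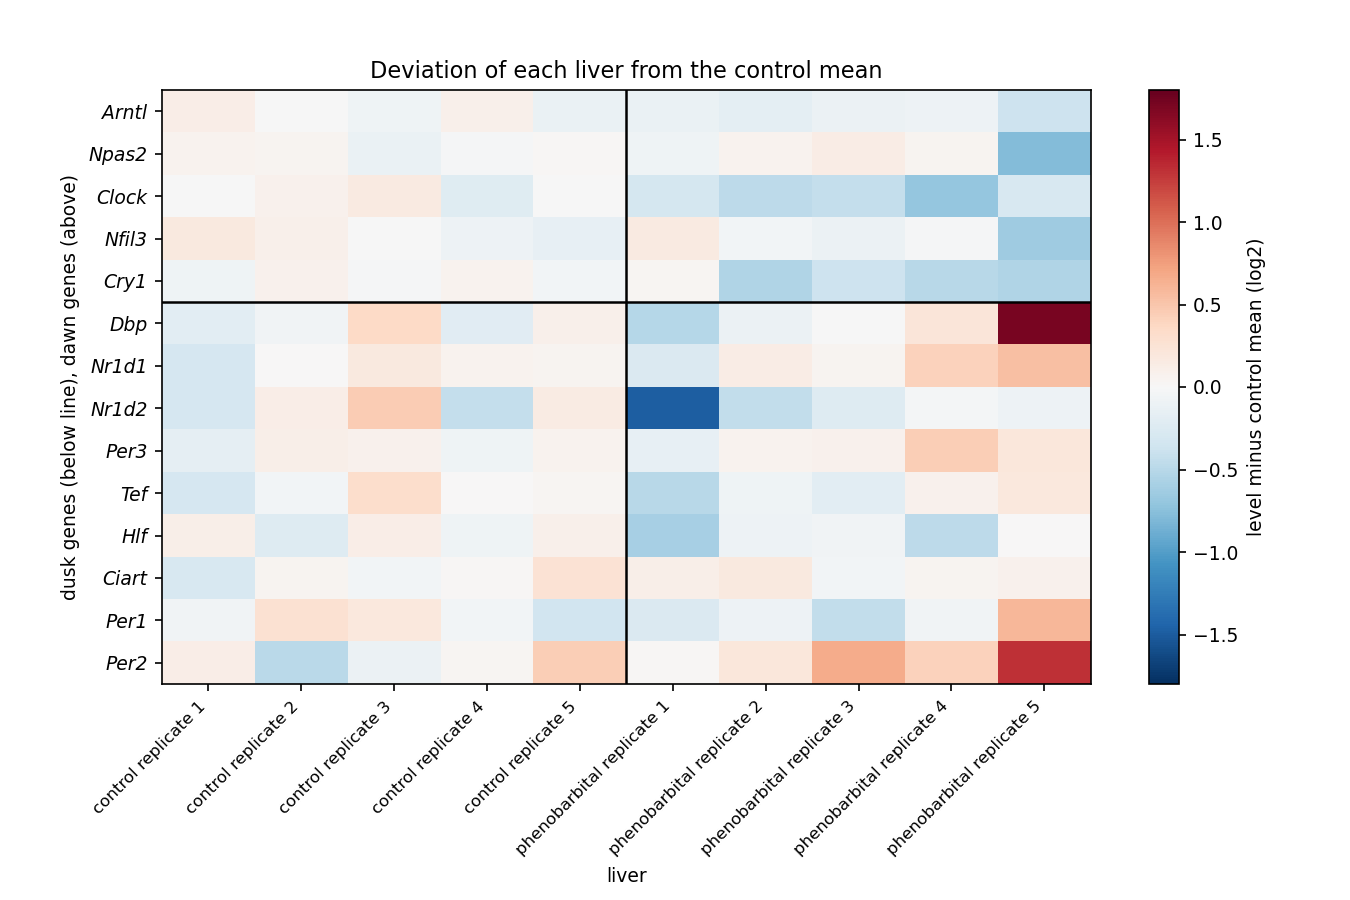
Level of 5 dawn genes (upper rows) and 9 dusk genes (lower rows) in each liver minus the control mean, in log2 units by colour, with controls to the left of the vertical line. Phenobarbital replicate 5 is lower in the dawn genes and higher in Dbp (1.71) and Per2 (1.31), and phenobarbital replicate 1 is lower in Nr1d2 (-1.49).

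Phenobarbital replicate 5 had the highest of 10 values in 4 of 10 members, Per1, Per2, Nr1d1 and Dbp, and the lowest in 1, Arntl. Over all genes it was highest in 8.07% and lowest in 8.04%. Phenobarbital replicate 1 had the lowest value in 3 members, Cry2, Nr1d2 and Dbp, and the highest in none, against 14.1% lowest and 9.12% highest over all genes. Among the 5 treated arrays, phenobarbital replicate 5 had the lowest spike-in mean (5.76) and the highest upper quartile (7.36). Phenobarbital replicate 1 had a spike-in mean of 6.41 and the lowest upper quartile (7.30). Their part in these values was not tested.

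Further clock genes came from a list of 26, of which 23 were measured. In it 1 rose and 4 fell with an adjusted p under 0.05, and the median log2 fold change was -0.10. That is 5 of 23, again near the 20.3% of all genes. The calls were not kept with the spike-in split as a block, which leaves control replicate 4 as the sole control beside the treated arrays. Sirt1, a deacetylase that acts on ARNTL and PER2, fell from 7.80 ± 0.34 to 6.95 ± 0.12 (SD, n = 5 each), with every treated liver below every control. Its log2 fold change was -0.85 ± 0.14 (SE, limma adjusted p = 0.0019) and -0.52 with the block, on a single probe set. Timeless, the mammalian relative of a fly clock gene, fell by 0.31 on the log2 scale, and Fbxw11, a ubiquitin ligase subunit for PER proteins, fell by 0.26. Arntl2, a relative of Arntl, had -0.34 and the PER kinase gene Csnk1e had 0.31, and each kept its call in 3 of 10 omissions of a single animal. After quantile normalisation Arntl2 did not pass (-0.29, limma adjusted p = 0.0671). Tested singly, 1 of 2 Timeless, 1 of 5 Fbxw11 and 1 of 2 Arntl2 probe sets passed as lower. For Csnk1e 1 of 3 passed as higher. Some listed genes that were not called had other probe sets that passed. As lower these were 4 of 9 for Rora, 3 of 6 for Gsk3b, 1 of 5 for Btrc, 1 of 4 for Nono and 1 of 3 for Prkaa2. As higher they were 2 of 5 for Csnk1d, whose probe set with the highest mean had -0.15. Among all probe sets 7.7% passed as higher and 11% as lower.

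The partners by phase did not pass. Npas2, which can stand in for Clock, was between 7.0 and 7.18 in controls, between 7.03 and 7.25 in phenobarbital replicates 1 to 4, and 6.33 in phenobarbital replicate 5. Nfil3, the repressor that competes with DBP at D-boxes, was between 10.29 and 10.62 in controls, between 10.34 and 10.60 in phenobarbital replicates 1 to 4, and 9.80 in phenobarbital replicate 5. Bhlhe40, a repressor at E-boxes, was between 8.85 and 9.61 in the other 9 livers and 10.21 in that animal. The D-box activators Tef and Hlf were lowest in phenobarbital replicate 1, at 8.26 and 7.44, with group differences of -0.10 ± 0.13 and -0.25 ± 0.12 (SE, limma adjusted p = 0.632 and 0.163). Of 3 Tef probe sets tested singly 1 passed as higher and 1 as lower. Ciart, a repressor of CLOCK and ARNTL, differed by 0.07 ± 0.09 (SE, limma adjusted p = 0.6), and Bhlhe41 by 0.13 ± 0.11 (SE, limma adjusted p = 0.43).

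Genes most like Arntl and Dbp were ranked by Pearson correlation over the 10 arrays after each group's mean was removed, among the brighter genes (9094 genes for Arntl and 9095 for Dbp). With Dbp the lowest included Nfil3 (r = -0.90, Spearman's rho -0.59) and the acute phase gene Orm2 (r = -0.93, rho -0.78), and the highest were Sarnp, Qrich1, Atxn1, Msantd4 and Glt8d1 (r from 0.92 to 0.96, rho from 0.67 to 0.82). With Arntl the highest were Fbxo8, Coq9, Aqp11, Mrps17 and Pmvk (r from 0.93 to 0.95), and the lowest Srsf3 and Eif1a (r = -0.94 and -0.93). The arrays share their processing, Dbp has a lone high value in phenobarbital replicate 5, and no p is given for values picked from so many.

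Outputs and inputs of the liver clock were counted from further lists. Of 22 measured output genes 3 rose and 3 fell, near the 9.02% and 11.3% of all genes. Alas1, the first enzyme of haem synthesis and a target of DBP as well as of phenobarbital's receptor, rose from 9.33 ± 0.79 to 11.86 ± 0.78 (SD, n = 5 each, limma adjusted p = 0.00155). Phenobarbital replicates 1 and 5, which lie at opposite ends for Dbp, were its highest livers at 12.59 and 12.72, and the highest control was replicate 4 at 10.72. A relation between Alas1 and Dbp was not tested. With the spike-in split as a block its log2 difference was 1.14 (limma adjusted p = 0.36). Lonrf3 fell (-0.62 ± 0.14 SE) and so did the vasopressin receptor gene Avpr1a (-0.43 ± 0.12 SE), which kept its call with the block (-0.83, limma adjusted p = 0.0346) and in 7 of 10 omissions, but not after quantile normalisation (-0.36, limma adjusted p = 0.0516). Usp2, a deubiquitinase gene that follows the phase of Dbp in liver, fell by 0.24 on the log2 scale, and its call was lost in 7 of 10 omissions of a single animal and after quantile normalisation (-0.16, limma adjusted p = 0.129). Insig2 and Tspan4 rose by 0.28 and 0.36, each with its call kept in 5 of 10 omissions. With the spike-in split as a block Lonrf3, Usp2, Insig2 and Tspan4 had -0.49, -0.23, 0.35 and 0.18 and did not pass (limma adjusted p from 0.304 to 0.692).

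Glucocorticoids and body temperature carry time to the liver. Of 15 glucocorticoid-related genes 1 rose and 4 fell, where 9.02% and 11.3% of all genes did. Their median log2 fold change was -0.26, and that of all genes 0.01. Besides responsive genes the list holds the receptor gene Nr3c1 and the enzyme gene Hsd11b1. Nr3c1 is among the 4 that fell (-0.26, limma adjusted p = 0.0136), and Hsd11b1 did not pass. Klf9, which is also rhythmic in liver, fell by 0.98 on the log2 scale with 5 of 7 probe sets lower, and was 11.88 and 11.81 in phenobarbital replicates 1 and 5 against 10.84 to 11.07 in the other treated livers. Pck1, of gluconeogenesis, fell by 1.11, and Lcn2 rose by 0.81. Cebpd fell by 0.48, and its call was kept in 5 of 10 omissions but not after quantile normalisation (-0.37, limma adjusted p = 0.059).

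Of 9 measured temperature-responsive genes 6 rose and none fell, with a median log2 fold change of 0.55, beside the same shares of all genes. All but Cirbp, a cold-inducible gene, are heat shock or chaperone genes. Cirbp differed by -0.07 ± 0.15 (log2, SE, limma adjusted p = 0.755). The heat shock genes Hspa1a, Hspa1b, Dnajb1 and Stip1 rose by 2.23, 1.17, 1.22 and 0.69. Phenobarbital replicate 1, lowest in the dusk genes, was the highest for Hspa1a at 11.50 against 9.0 to 9.37 in the other treated livers, and for Dnajb1 at 11.91 against 9.95 to 10.07. With the spike-in split as a block none of the glucocorticoid or temperature genes named here passed. Whether these genes have a part in the values of the clock genes was not tested.

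Whole liver also holds cells other than hepatocytes, and fewer cells of a type cannot be told apart from less RNA per cell. The counts of markers that follow stand beside 9.02% of all genes higher and 11.3% lower. Of 8 stellate cell markers 4 were lower and none higher, with a mean level of 8.37 to 8.58 in controls and 7.98 to 8.36 in treated livers. Of 8 endothelial markers 5 were lower and none higher, at 8.08 to 8.51 and 7.85 to 8.24. Of 9 Kupffer cell markers 1 was lower, and of 10 leukocyte markers 2 were higher and 1 lower. Pancreas, muscle, blood and cholangiocyte markers gave 2 of 7, 1 of 8, 1 of 4 and 1 of 5 higher and none lower. The part of these cells in the lower Clock and Cry1 values was not tested.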

How the data were processed

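Liver RNA of 10 animals was labelled with the Affymetrix 3' IVT kit, per the labels' protocols, and GCOS is named in the submitters' processing notes. The authors deposited log2 values, 1 per probe set and array, whose summarisation and normalisation are not given in the sources used here, and the log2 scale was read from the range. Each array is a separate animal. The p-values set the group difference against the spread between arrays of a group, which holds animal and technical differences together. For genes with several probe sets, the brightest over all arrays stood for the gene. Of 45101 probe sets, 34945 had 1 symbol in the platform annotation, 932 several, 9160 were not listed and 64 were controls. No detection calls were given, so dim genes were kept. Groups were compared with limma 3.58.1 in R 4.3.3 (a two-sided test, with p adjusted after Benjamini and Hochberg over 18193 genes and called under 0.05). All probe sets were also fitted singly, over 45037 without the controls. Tested on simulated data of 18193 genes, the fit recovered 100% of log2 changes of 2, 98.5% of 1 and 71.2% of 0.5, with 13 false calls.

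The members and lists were chosen with earlier results of these data known. The genes named are all members, clock partners fixed by name, and the genes most like Arntl and Dbp. From each list the called genes with the largest change were added (up to 6, or 4 for glucocorticoid and temperature genes). Nr3c1, Hsd11b1 and Cirbp are named besides, to describe their lists. Same-numbered animals of the groups are unrelated in the labels, and their deviations correlated over 0.1 in 2 of 5 pairs, at most 0.12. Pairs of different number ran from -0.18 (control replicate 5 with phenobarbital replicate 4) to 0.13 (control replicate 2 with phenobarbital replicate 3). Alternatives covered normalisation, dim genes, the choice of probe set, the variance model, array weights, the replicate block, the spike-in split or mean, and each animal left out. Plots used matplotlib 3.10.9 and Python 3.11.15.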

Additional observations from a re-analysis of the deposited data

Results flagged for a closer look

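In all, 3 values stood apart from the other 4 of their group by the ratio of the gap to the range, among 34 groups examined, where chance alone gives about 1 in 20. Cry2 was 6.86 in control replicate 3, against 7.12 to 7.22 in the other controls. Nr1d2 was 8.11 in phenobarbital replicate 1, against 9.15 to 9.56 in the other treated livers. Npas2 was 6.33 in phenobarbital replicate 5, against 7.03 to 7.25.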

How the results depend on the processing

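Clock kept its direction in all 21 alternatives and its call in 19, and Cry1 its direction in all 20 that could be run and its call in 16. Clock members called lower numbered 2, but 1 after quantile normalisation and 1 of 9 on single-transcript probe sets, where Cry1 has no value. With the spike-in split as a block or the spike-in mean as a covariate, 0 members were called, 0 other clock genes, and 143 and 129 genes in all. Leaving out 1 animal gave 1 to 2 members lower, 3 to 6 other clock genes and 2433 to 4618 genes in all. Other clock genes called were 3 of 15 among the brighter genes, where 2636 of 9095 genes passed. On single-transcript probe sets they were 3 of 22, where 3328 of 16591 genes passed. Fitted singly, 8425 of 45037 probe sets were called. With the replicate block, 1 member was called higher, Per2 (0.52, limma adjusted p = 0.024), with 3664 genes called in all. The replicate numbers do not pair animals.

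Some uncalled genes changed sign. Per1 (-0.05) had 0.0452 after quantile normalisation and -0.2175 to 0.045 with 1 animal left out, above 0 without control replicate 2 or phenobarbital replicate 3. Cry2 had -0.024 with the spike-in block and -0.16 with the covariate. With the covariate Nr1d1 had -0.0262, Npas2 0.0415, Nfil3 0.12 and Ciart -0.0348. With 1 animal left out, Dbp ran from -0.10 to 0.453, Npas2 from -0.1865 to 0.0435 and Bhlhe40 from -0.14 to 0.1985, each turned by phenobarbital replicate 5. Tef ran from -0.1745 to 0.004, turned by phenobarbital replicate 1. Bhlhe40 had -0.0104 with array weights. The cause was not tested. The dawn minus dusk difference between group means was -0.28, and from -0.44 to -0.10 with 1 animal left out. The 5 arrays per group limit precision.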
